A study of Mus musculus with 12 samples.

Results

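The genes described here encode the major histocompatibility complex (MHC) molecules of the mouse, called H2, and the proteins that load peptides onto them. The set holds every gene of the deposited table whose symbol starts with H2-, leaving out 4 names that end in -ps, and 10 genes named one by one: B2m, Tap1, Tap2, Tapbp, Psmb8, Psmb9, Psmb10, Nlrc5, Ciita and Cd74. That gives 51 of the 55450 genes in the table. They fall into 29 class I heavy chain genes, 8 partners of class I, 13 class II genes with the regulator and invariant chain counted among them, and H2-Ke6, a gene of the region that is not an MHC molecule.

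The samples are 12 RNA-seq libraries of CD4+ T cells from the mouse thymus, 4 for each of 3 sorted populations. Eos+ Tregs were the Foxp3+ cells that carried both Ccr6 and Cxcr4, Eos- Tregs the Foxp3+ cells that lacked both, and conventional T cells (Tconv) the Foxp3- cells. A Treg is a regulatory T cell, and Eos, the product of Ikzf4, is one of its transcription factors. All donors were CD4-Cre x Foxp3-GFP mice, so all 3 populations share a Cre transgene under Cd4 control and a green fluorescent reporter for Foxp3. Per the labels the Eos status of a Treg was read from 2 surface receptors, and no age, sex or floxed allele is named.

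Class I molecules pair a heavy chain with beta-2 microglobulin and show peptides from inside the cell to CD8+ T cells. Those peptides are cut by the proteasome, carried into the endoplasmic reticulum by TAP and loaded with the help of tapasin. Class II molecules show peptides from endosomes to CD4+ T cells. Their groove is blocked at first by the invariant chain Cd74, and they are loaded with the help of H2-DM, which H2-O restrains. In thymocytes, class I on the surface rises as cells mature, and the H2-Q molecules that carry the Qa-2 antigen appear late. In mice, class II is made by B cells, dendritic cells, macrophages and thymic epithelium and is not a usual product of T cells. NLRC5 drives transcription of class I genes and CIITA that of class II genes, both through a promoter module that includes the Y box.

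Levels are in CPM, counts scaled to a common library total after TMM correction, given in the order of replicates 1 to 4. Fold changes are log2 values ± SE from edgeR, first group over second, and p-values are adjusted over all 15361 genes tested, with a threshold of 0.05 for a call. Depth ran from 23.9 M to 37.9 M expected counts per library. Of the 51 genes, 36 passed the filter on low counts, 11 had 0 counts in all 12 libraries and 4 (H2-Bl, H2-M5, H2-Q1 and H2-Q3) had at most 60 counts in all. T cell transcripts were present in all 12 libraries, with Cd3e between 801 and 1038 CPM. Of 8 T cell markers, 2 were called lower in Eos+ than in Eos- Tregs, 7 lower in Eos+ Tregs than in Tconv and 3 lower in Eos- Tregs than in Tconv (3, 8 and 5 with the replicate block), and the part of this in the results below was not tested. Of 5 Treg markers, 5 were called higher in each Treg population than in Tconv, and Ikzf4, which encodes Eos, was called higher in Eos+ than in Eos- Tregs (0.88 ± 0.08, adjusted p = 2.29e-05), with 319, 334, 312 and 292 CPM in Eos+ Tregs and 155, 165, 181 and 181 CPM in Eos- Tregs. The libraries numbered 1 stood apart. Foxp3 was 55.0 CPM in Eos+ Treg replicate 1 and 53.3 CPM in Eos- Treg replicate 1, against 486 to 862 CPM in the other 6 Treg libraries. Il2ra was 538 CPM in Eos+ and 496 CPM in Eos- Treg replicate 1, and Ctla4 was 436 and 261 CPM. Both genes lay there within the range of the other libraries of the same population. Ikzf2, at 465 and 262 CPM, was at its lowest there in each Treg population. The immature thymocyte genes Rag1, Rag2, Dntt and Ptcra together had 164, 22.9, 17.6 and 27.6 CPM in Eos+ Tregs, 166, 62.2, 4.63 and 6.61 CPM in Eos- Tregs, and 149, 142, 25.6 and 42.6 CPM in Tconv. In sorted bulk samples, fewer cells of a type and less RNA per cell cannot be told apart.

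The promoters are shown first because 4 of the heavy chain genes that were higher in both Treg populations than in Tconv share a stretch of sequence there. RefSeq promoter windows (build GRCm38.p6, 250 bases before to 50 after the annotated start, 300 bases in all) were at hand for 37 of the 51 genes. H2-K2, H2-Q5, H2-T10 and H2-T24 were among the genes without a window. Motifs of 3 kinds were searched on both strands: the Y box CTGATTGG, bound by NF-Y, the core GAAANNGAA of the interferon-stimulated response element (ISRE), bound by IRF factors, and the NF-kB site GGGATTCCC. Over all 32851 windows of the table, 4.1% held the Y box, 8.56% the ISRE core and 0.353% the NF-kB site. The NF-kB site and the Y box stood together in 5 windows of the whole table, and these were the windows of H2-D1, H2-Q6, H2-Q7 and both starts of H2-K1. The 4 stretches below run from the NF-kB site to the Y box of each gene. They are printed 5′ to 3′ on the gene's strand, with the matches in capitals and the Y box on the opposite strand, so that it reads CCAATCAG.
H2-D1, chr17:35262919-35263053, plus strand: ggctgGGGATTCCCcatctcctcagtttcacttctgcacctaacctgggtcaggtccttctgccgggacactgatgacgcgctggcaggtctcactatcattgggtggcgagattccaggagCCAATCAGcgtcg
H2-K1, chr17:34000327-34000462, minus strand: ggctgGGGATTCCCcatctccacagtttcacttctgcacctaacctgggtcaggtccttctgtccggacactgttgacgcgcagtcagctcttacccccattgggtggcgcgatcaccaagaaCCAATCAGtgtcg
H2-Q6, chr17:35424673-35424807, plus strand: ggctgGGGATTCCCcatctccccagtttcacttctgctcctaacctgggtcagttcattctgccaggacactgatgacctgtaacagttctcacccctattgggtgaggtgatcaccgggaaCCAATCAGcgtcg
H2-Q7, chr17:35439018-35439151, plus strand: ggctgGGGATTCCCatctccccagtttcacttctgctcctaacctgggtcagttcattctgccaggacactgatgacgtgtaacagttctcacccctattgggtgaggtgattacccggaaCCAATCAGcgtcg

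The stretches of H2-Q6 and H2-Q7 were 97% identical when aligned, those of H2-D1 and H2-K1 87.5%, and each H2-Q stretch matched each classical one at 83.3% to 84.6%. The windows of H2-Q10, H2-Q2, H2-Q4 and H2-M3 held none of the 3 motifs as spelled. Of these, H2-Q10 and H2-M3 were also called higher in both Treg populations than in Tconv, as were H2-K2 and H2-Q5, which have no window. The stretch is thus not shown for every heavy chain gene with that pattern. The Y box also stood in 8 H2-M genes (H2-M1, H2-M9, H2-M11 and 5 of the H2-M10 group) that had 0 counts in all libraries. Among the H2-T genes with a window, the ISRE core stood in H2-T23 and H2-T22, here as its reverse complement, and in H2-T23 it was joined by a Y box. B2m also held an ISRE core. In all, 3 of the 37 genes with a window held it, against 8.56% of all windows. The windows of H2-D1, H2-K1, H2-Q6 and H2-Q7 did not hold the core as spelled. Other spellings of the ISRE were not searched, so its absence from these 4 promoters is not shown. The stretches of H2-T23 and H2-T22 are printed because H2-T22 was called lower in Eos+ than in Eos- Tregs. H2-T23 was not called there by edgeR without the replicate block.
H2-T23, chr17:36032741-36032829, minus strand: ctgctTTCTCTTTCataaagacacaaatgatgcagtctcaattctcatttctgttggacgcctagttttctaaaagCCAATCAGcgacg
H2-T22, chr17:36042909-36042948, minus strand: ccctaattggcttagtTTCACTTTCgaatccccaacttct

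In class II, 4 of 8 genes with a window held a Y box, here on the gene's own strand. They were H2-Aa, H2-Eb1, H2-Eb2 and H2-Oa, while H2-Ob held none of the 3 motifs. The stretches of H2-Aa, H2-Eb1 and H2-Oa are printed because H2-Oa varied less between libraries than H2-Aa and H2-Eb1. A match is a string of letters and does not show that a factor binds there.
H2-Aa, chr17:34287851-34287890, minus strand: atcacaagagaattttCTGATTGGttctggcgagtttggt
H2-Eb1, chr17:34305789-34305828, plus strand: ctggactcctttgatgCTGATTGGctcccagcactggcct
H2-Oa, chr17:34092317-34092356, plus strand: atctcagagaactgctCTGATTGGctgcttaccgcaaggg

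**Figure D1:**
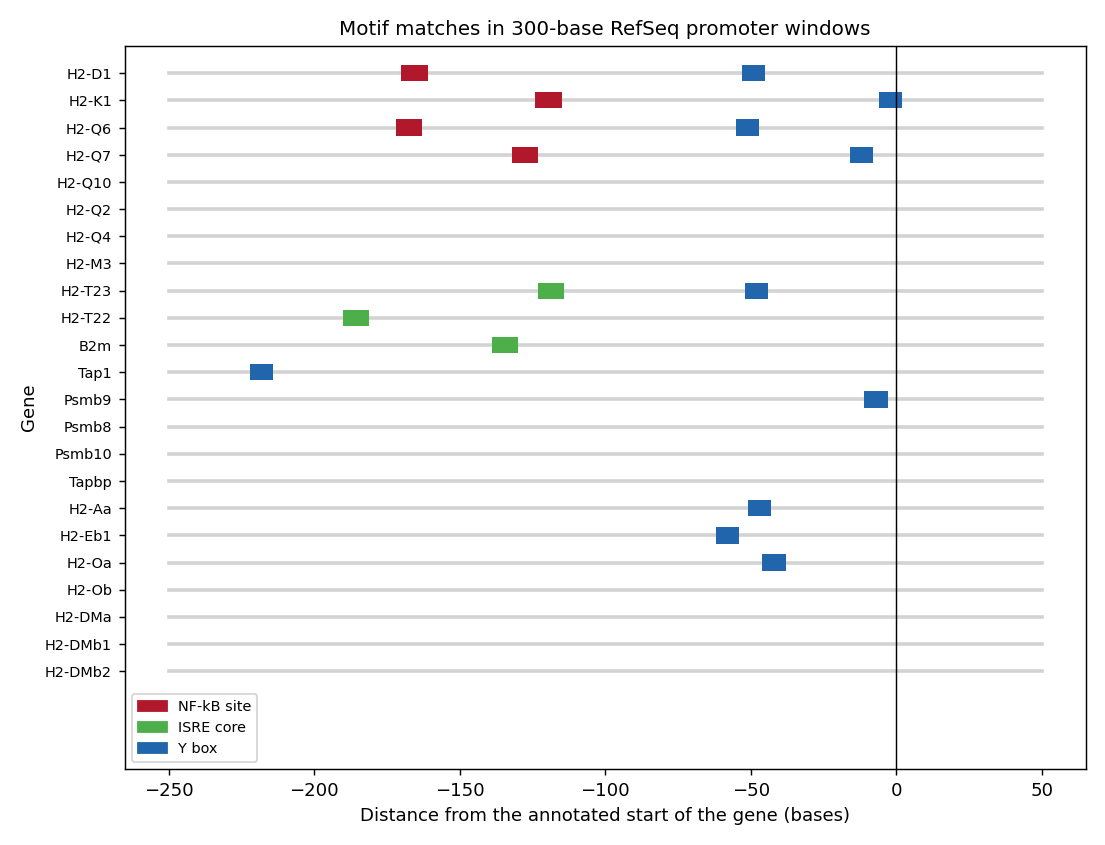
Positions of motif matches in the RefSeq promoter windows of 23 genes. The horizontal axis is the distance in bases from the annotated start of the gene, each grey line is 1 window of 300 bases, and coloured boxes mark NF-kB sites, ISRE cores and Y boxes. H2-D1, H2-K1, H2-Q6 and H2-Q7 are the genes with an NF-kB site, each followed by a Y box. Only the spelling of each motif given in the text was searched.

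Class I heavy chain transcripts were higher in both Treg populations than in Tconv. Summed over all 29 genes they came to 16893, 15486, 16379 and 17628 CPM in Eos+ Tregs, 13714, 13489, 15599.8 and 17559.9 CPM in Eos- Tregs, and 8128, 6985, 9504 and 9292 CPM in Tconv, so that every Treg library lay above every Tconv library.

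Over the whole table, 16.3% of genes were called in Eos+ Tregs against Eos- Tregs (9.82% higher, 6.45% lower), 30.3% in Eos+ Tregs against Tconv (17.3% higher, 13% lower) and 14.6% in Eos- Tregs against Tconv (8.76% higher, 5.89% lower). The 36 MHC and antigen processing genes tested gave 12, 13 and 15 calls in these 3 comparisons, and 20, 18 and 20 with the replicate block, a fit that takes samples of the same number as pairs. With the block, 22.8% of all genes were called in Eos+ Tregs against Eos- Tregs (13.1% higher, 9.67% lower), 36.3% in Eos+ Tregs against Tconv (19.8% higher, 16.5% lower) and 21.5% in Eos- Tregs against Tconv (11.3% higher, 10.2% lower). At an unadjusted p under 0.05 the shares of all genes were 29% (16.2% higher, 12.9% lower), 39.6% (21.5% higher, 18.2% lower) and 27.7% (14.7% higher, 13% lower) in the same order of comparisons. Leaving out Tconv replicate 1 or Tconv replicate 2 gave 9 calls in Eos- Tregs against Tconv. The groups did not overlap for 10, 11 and 12 of the 36 genes, against 20%, 33.1% and 20.1% of all genes. In Eos+ Tregs against Tconv the share of calls among the 36 was therefore near that of the table. The counts of each class and list below are to be read against these shares. Any 2 of the 3 comparisons share the 4 libraries of 1 population.

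Of the 16 heavy chain genes tested, 8 were called higher and 2 lower in Eos+ Tregs than in Tconv, with a median log2 change of 0.95. In Eos- Tregs against Tconv 9 were called higher and 0 lower by edgeR, with a median of 0.80 (11 higher with the replicate block, and 0 lower at an unadjusted p under 0.05 or by DESeq2 or limma-voom). The median over all 15361 genes was -0.0075 in Eos+ Tregs against Tconv and -0.012 in Eos- Tregs against Tconv. Between the Treg populations the heavy chains split, with 3 called higher (H2-Q5, H2-Q6 and H2-Q10) and 3 lower (H2-T10, H2-T22 and H2-T24) in Eos+ Tregs than in Eos- Tregs, and 10 not called. With the replicate block 6 were called lower, and with limma-voom 5.

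The classical heavy chains H2-D1 and H2-K1, which present peptides on nearly all cells, carried most of the class I transcript. H2-D1 had 8384, 7759.7, 7719.7 and 7909.9 CPM in Eos+ Tregs, 6759, 6654, 6933 and 7967 CPM in Eos- Tregs, and 4066, 3673, 4561 and 4512 CPM in Tconv (ENSMUSG00000073411.11, chr17:35262730-35267499, plus strand, mm10). The means were 7943 ± 305 CPM in Eos+ Tregs, 7078 ± 604 CPM in Eos- Tregs and 4203 ± 417 CPM in Tconv (SD, n = 4 each). The 8 Treg libraries all lay above the 4 Tconv libraries, while the Treg populations overlapped. The log2 change was 0.92 ± 0.10 in Eos+ Tregs against Tconv (adjusted p = 1.47e-05) and 0.75 ± 0.10 in Eos- Tregs against Tconv (adjusted p = 0.00023). In Eos+ against Eos- Tregs it was 0.17 ± 0.10, with a 95% interval of -0.04 to 0.38 and an adjusted p of 0.284.

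H2-K1 had 5159, 4716, 5211 and 5390.4 CPM in Eos+ Tregs, 4262, 4193, 5273 and 5332 CPM in Eos- Tregs, and 2463, 2009.7, 3059 and 2826 CPM in Tconv (ENSMUSG00000061232.16, chr17:33996017-34000347, minus strand). Again every Treg library was above every Tconv library and the Treg populations overlapped. H2-K1 rose by 0.98 ± 0.13 on the log2 scale in Eos+ Tregs against Tconv (adjusted p = 0.000106) and by 0.88 ± 0.13 in Eos- Tregs against Tconv (adjusted p = 0.000736). The 95% interval of the difference between Eos+ and Eos- Tregs was -0.18 to 0.39. Per kilobase of exon, the mean level in Eos+ Tregs was 3080.0 CPM for H2-D1, 2953 CPM for B2m and 1742 CPM for H2-K1. H2-K2, annotated as a transcribed pseudogene, was likewise lower in Tconv than in either Treg population, with 153, 156, 109.9 and 109 CPM in Eos+ Tregs, 155, 127, 125 and 117 CPM in Eos- Tregs, and 85.0, 59.0, 74.2 and 39.6 CPM in Tconv. It rose by 1.04 ± 0.21 in Eos+ Tregs against Tconv (adjusted p = 0.00209) and by 1.03 ± 0.21 in Eos- Tregs against Tconv (adjusted p = 0.00522) on the log2 scale. Of the 50-base words of H2-K2, 9.4% also occur in transcripts of other genes, and its values were fractional in 12 of 12 libraries. The part of reads from other genes in its calls was not tested.

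The H2-Q family held the largest fold changes against Tconv among the heavy chains that were called. Of its 8 genes 6 were tested, and 3 were called higher in Eos+ than in Eos- Tregs, 4 higher in Eos+ Tregs than in Tconv and 4 higher in Eos- Tregs than in Tconv. H2-Q6 and H2-Q7 belong to the Qa-2 group of nonclassical heavy chains, H2-Q10 is known as a secreted heavy chain of the liver, and H2-Q5 is annotated as a polymorphic pseudogene. H2-Q6 had 770.2, 643, 715 and 783 CPM in Eos+ Tregs, 266, 126, 217 and 312 CPM in Eos- Tregs, and 73.1, 33.2, 67.8 and 77.2 CPM in Tconv (ENSMUSG00000073409.12, chr17:35424850-35430055, plus strand). The 3 populations were fully separated, Eos+ Tregs highest and Tconv lowest. H2-Q6 was 3.16-fold higher in Eos+ than in Eos- Tregs (log2 1.66 ± 0.28, adjusted p = 0.00137) and 11.6-fold higher in Eos+ Tregs than in Tconv (log2 3.53 ± 0.30, adjusted p = 2.16e-06). Eos- Tregs were 3.66-fold above Tconv (log2 1.87 ± 0.28, adjusted p = 0.00067). H2-Q5 had 94.2, 84.9, 91.7 and 97.2 CPM in Eos+ Tregs, 37.7, 23.1, 38.3 and 49.1 CPM in Eos- Tregs, and 11.8, 6.07, 10.6 and 12.9 CPM in Tconv, the same order with no overlap. Its log2 change was 1.31 ± 0.23 in Eos+ against Eos- Tregs (adjusted p = 0.00206), 3.15 ± 0.25 in Eos+ Tregs against Tconv (adjusted p = 1.42e-06) and 1.84 ± 0.24 in Eos- Tregs against Tconv (adjusted p = 0.000248).

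H2-Q7, unlike H2-Q6, was not called between the Treg populations. H2-Q7 had 1212, 1103, 1365 and 1651 CPM in Eos+ Tregs, 929, 824, 1244 and 1607 CPM in Eos- Tregs, and 409, 239, 434 and 469 CPM in Tconv (ENSMUSG00000060550.16, chr17:35439155-35443773, plus strand). Treg libraries lay above Tconv libraries throughout, and Eos+ and Eos- Tregs overlapped. In each set of libraries with the same number, H2-Q7 was higher in Eos+ than in Eos- Tregs (adjusted p = 0.131 by edgeR with the replicate block). H2-Q7 rose by 1.78 ± 0.24 in Eos+ Tregs against Tconv (adjusted p = 0.000101) and by 1.57 ± 0.24 in Eos- Tregs against Tconv (adjusted p = 0.000759), while the 95% interval in Eos+ against Eos- Tregs was -0.29 to 0.71 (adjusted p = 0.606). Within a library, H2-Q6 took 38.9, 36.8, 34.4 and 32.2% of the CPM of H2-Q6 and H2-Q7 together in Eos+ Tregs, 22.3, 13.2, 14.9 and 16.2% in Eos- Tregs, and 15.2, 12.2, 13.5 and 14.1% in Tconv. These genes share reads. Of the 50-base words of its transcripts, 35.0% for H2-Q6, 26.5% for H2-Q7 and 36.4% for H2-Q5 also occur in transcripts of other genes, and the values of all 3 were fractional in 12 of 12 libraries. The split between them therefore rests on how RSEM shared out reads, whereas the sum of all 8 H2-Q genes does not rest on the split within the family. Words are also shared with the classical genes, 5.9% of those of H2-D1 with H2-Q1 and 5.2% of those of H2-K1 with H2-Q10. Sharing of reads with genes outside the family can thus still enter the H2-Q sum. That sum was 2116, 1852, 2199 and 2577 CPM in Eos+ Tregs, 1278, 1014, 1552 and 2021 CPM in Eos- Tregs, and 531, 309.9, 546 and 593 CPM in Tconv, with Eos- Treg replicate 4 reaching into the range of Eos+ Tregs. In each set of libraries with the same number, the sum was higher in Eos+ than in Eos- Tregs and higher in Eos- Tregs than in Tconv.

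H2-Q10 had 12.3, 12.3, 10.0 and 11.9 CPM in Eos+ Tregs, 7.19, 3.28, 4.98 and 5.37 CPM in Eos- Tregs, and 2.35, 2.41, 2.64 and 4.13 CPM in Tconv. Eos+ Tregs stood above both other populations without overlap, while Eos- Tregs and Tconv overlapped. H2-Q10 rose by 1.16 ± 0.26 in Eos+ against Eos- Tregs (adjusted p = 0.00894) and by 2.01 ± 0.27 in Eos+ Tregs against Tconv (adjusted p = 0.000101). In Eos- Tregs against Tconv it was called at 0.85 ± 0.26 (adjusted p = 0.0487), a call that was lost on leaving out any library but Eos- Treg replicate 2 or Tconv replicate 4 (adjusted p 0.0596 to 0.127). Of the 50-base words of H2-Q10, 19.1% also occur in transcripts of other genes, chiefly of the far more abundant H2-Q7. The values of H2-Q10 were fractional in 12 of 12 libraries. Its level therefore also rests on how RSEM shared out reads, and the part of H2-Q7 reads in its calls was not tested. H2-Q2 and H2-Q4 had lower values in Eos+ than in Eos- Tregs and were called by some fits. H2-Q2 had 10.4, 1.92, 2.95 and 1.82 CPM in Eos+ Tregs, 15.5, 8.95, 7.95 and 9.08 CPM in Eos- Tregs, and 18.1, 13.7, 8.67 and 6.26 CPM in Tconv. Eos+ Treg replicate 1 was the only Eos+ library above 3 CPM. The log2 change of H2-Q2 was -1.28 ± 0.53 in Eos+ against Eos- Tregs (adjusted p = 0.129, 0.00649 with the replicate block) and -1.45 ± 0.54 in Eos+ Tregs against Tconv (adjusted p = 0.0569, 0.00251 with the block). Without Eos+ Treg replicate 1 these were -2.21 (adjusted p = 0.00347) and -2.38 (adjusted p = 0.000829), and without Tconv replicate 4 the second was -1.66 (adjusted p = 0.0447). H2-Q4 had 16.5, 7.26, 14.4 and 32.1 CPM in Eos+ Tregs, 21.5, 29.4, 38.8 and 38.7 CPM in Eos- Tregs, and 16.6, 14.1, 22.3 and 23 CPM in Tconv. In Eos+ against Eos- Tregs its change was -0.87 ± 0.36 (adjusted p = 0.127, 0.0215 with the block, and 0.0124 without Eos+ Treg replicate 4). H2-Q4 shares 19.11% of its exon bases with the antisense gene Gm11131, and these counts carry no strand.

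**Figure D2:**
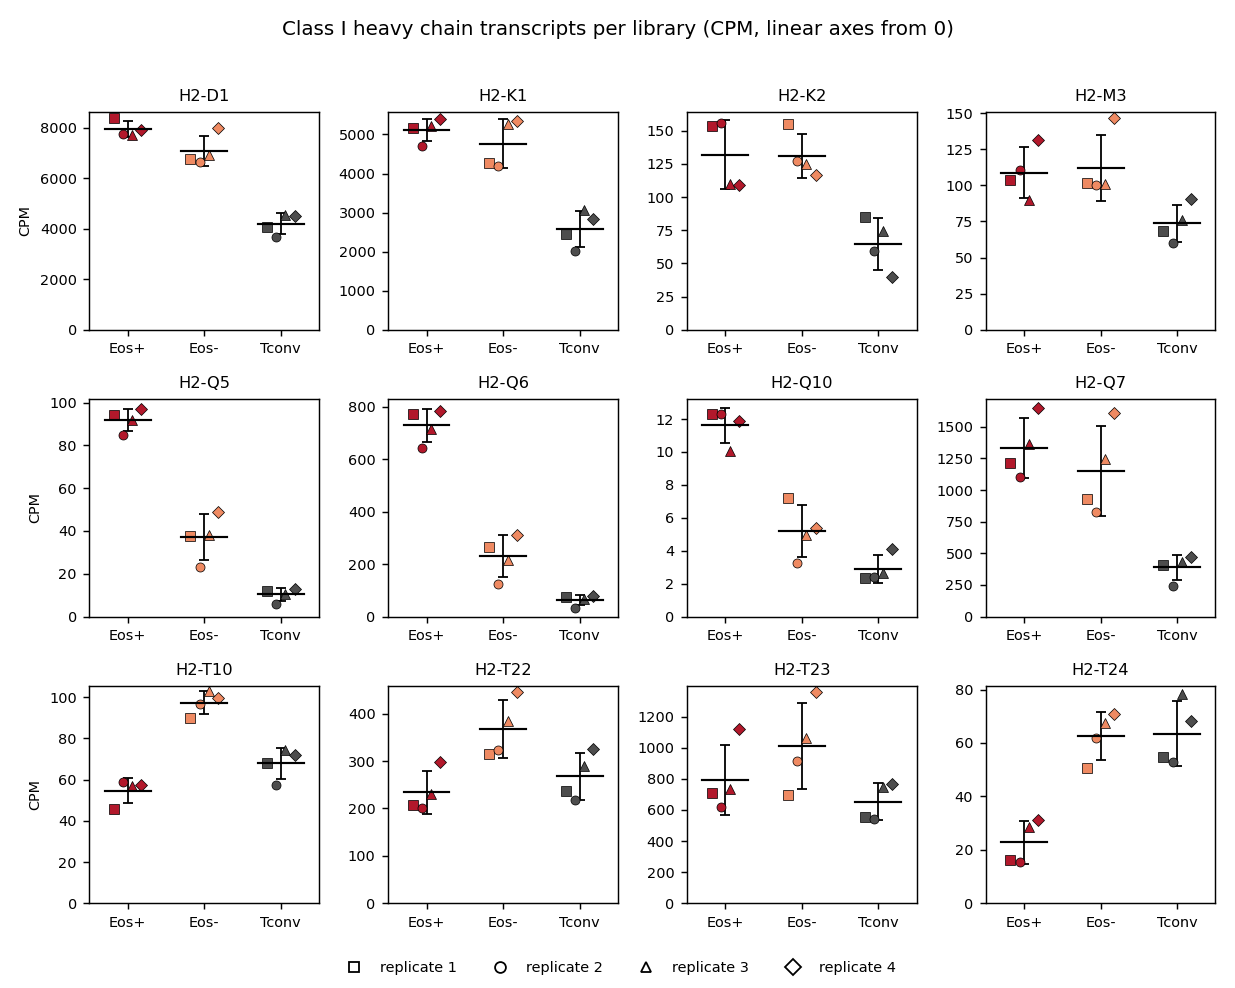
Levels of 12 class I heavy chain transcripts by library. Each panel has CPM on a linear axis from 0, points are libraries with the replicate number as the symbol, and bars give the mean ± SD of 4 libraries in Eos+ Tregs, Eos- Tregs and Tconv. In the H2-Q6 panel the Eos+ libraries sit between 643 and 783 CPM, above all others, and in the H2-T24 panel they sit between 15.5 and 31.0 CPM, below all others.

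Of the 5 H2-T genes, 3 were called lower in Eos+ than in Eos- Tregs and 0 higher (4 lower with the replicate block, and 0 higher at an unadjusted p under 0.05). H2-T23 encodes the Qa-1 heavy chain, which presents class I leader peptides to the inhibitory receptor CD94/NKG2A, and H2-T22 and H2-T10 are close relatives that some gamma-delta T cell receptors recognise. H2-T10 had 45.8, 58.9, 56.7 and 57.2 CPM in Eos+ Tregs, 89.7, 96.9, 103 and 99.5 CPM in Eos- Tregs, and 67.9, 57.4, 74.5 and 71.7 CPM in Tconv (ENSMUSG00000079491.9, chr17:36115876-36121465, minus strand). Eos- Tregs were above both other populations without overlap. H2-T10 fell in Eos+ against Eos- Tregs (-0.83 ± 0.11, adjusted p = 0.000217) and rose in Eos- Tregs against Tconv (0.52 ± 0.10, adjusted p = 0.00495). In Eos+ Tregs against Tconv it was called at -0.31 ± 0.10 with overlapping groups (adjusted p = 0.0374). Leaving out any 1 of the libraries numbered 4, replicate 1 or 3 of the Eos+ Tregs or of Tconv, or replicate 2 of the Eos- Tregs, ended that call (adjusted p 0.0501 to 0.108).

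H2-T22 had 206, 201, 229.5 and 298 CPM in Eos+ Tregs, 315, 324, 384 and 446 CPM in Eos- Tregs, and 237, 218, 289 and 326 CPM in Tconv (ENSMUSG00000056116.18, chr17:36037128-36042747, minus strand). H2-T22 fell by 0.65 on the log2 scale in Eos+ against Eos- Tregs (SE 0.16, adjusted p = 0.0148), with no overlap between them. Against Tconv it was -0.20 ± 0.16 in Eos+ Tregs (adjusted p = 0.411, 0.022 with the replicate block) and 0.46 ± 0.16 in Eos- Tregs (adjusted p = 0.0775, 0.000346 with the block). The second was also called without Eos- Treg replicate 1 (adjusted p = 0.0484) or Tconv replicate 4 (adjusted p = 0.047). H2-T10 and H2-T22 share 31.7% and 31.2% of their 50-base words with each other, so their separate values are uncertain. H2-T23 had 706, 617, 734 and 1122 CPM in Eos+ Tregs, 699, 917, 1061 and 1358 CPM in Eos- Tregs, and 555, 544, 746 and 765 CPM in Tconv. All groups overlapped. In Eos+ against Eos- Tregs the H2-T23 change was -0.35 ± 0.22 (adjusted p = 0.332, 0.0394 with the block), and in Eos- Tregs against Tconv it was 0.63 ± 0.22 (adjusted p = 0.0746, 0.00238 with the block, 0.022 without Eos- Treg replicate 1 and 0.0421 without Eos+ Treg replicate 4).

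H2-T24, a nonclassical heavy chain gene, was the only one of the 16 tested that was called lower in Eos+ Tregs than in both other populations with no overlap. H2-T24 had 16.1, 15.5, 28.6 and 31.0 CPM in Eos+ Tregs, 50.5, 62.0, 67.5 and 70.8 CPM in Eos- Tregs, and 54.6, 52.9, 78.3 and 68.3 CPM in Tconv (ENSMUSG00000053835.17, chr17:36005695-36020560, minus strand). Eos- Tregs and Tconv overlapped. The log2 change was -1.46 ± 0.23 in Eos+ against Eos- Tregs (adjusted p = 0.001), a 2.75-fold lower level, and -1.48 ± 0.23 in Eos+ Tregs against Tconv (adjusted p = 0.000335). Only 3.2% of its 50-base words occur in another gene. Summed over the 5 H2-T genes, the level was 974, 892, 1049 and 1509 CPM in Eos+ Tregs, 1154, 1399.6, 1616 and 1976 CPM in Eos- Tregs, and 915, 872, 1187 and 1232 CPM in Tconv, with overlap in each comparison. In all 4 sets of libraries with the same number, this sum was lower in Eos+ than in Eos- Tregs and higher in Eos- Tregs than in Tconv.

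H2-M3 had 104, 110.4, 89.5 and 132 CPM in Eos+ Tregs, 101, 100, 101 and 147 CPM in Eos- Tregs, and 68.3, 60.1, 76.0 and 90.5 CPM in Tconv. H2-M3 presents formylated bacterial and mitochondrial peptides. It was called at 0.56 ± 0.16 in Eos+ Tregs against Tconv (adjusted p = 0.0182), where the groups overlapped, and at 0.61 ± 0.16 in Eos- Tregs against Tconv (adjusted p = 0.0233). Leaving out Eos+ Treg replicate 4 or Tconv replicate 1 or 2 ended the first call (adjusted p 0.0517 to 0.0636) and leaving out Eos- Treg replicate 4 or the same Tconv libraries ended the second (adjusted p 0.0683 to 0.0762). Without the 3 libraries numbered 1 the p-values were 0.0732 and 0.0653. The remaining heavy chains were scarce. H2-M2 had at most 4.32 CPM and H2-T3, the thymus leukaemia antigen, at most 0.733 CPM in any library, and neither was called. H2-M1, H2-M9, H2-M11 and H2-M10.1 to H2-M10.6 had 0 counts in all libraries.

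Among the partners of class I, B2m followed the classical heavy chains, while Nlrc5 and the genes of peptide supply had their highest means in Eos- Tregs. Of the 8 partners, 0 were called higher and 2 lower in Eos+ than in Eos- Tregs by edgeR, DESeq2 and limma-voom (0 and 4 with the replicate block and at an unadjusted p under 0.05, 0 and 0 without the 3 libraries numbered 1), 1 was called higher in Eos+ Tregs than in Tconv (3 with the block) and 4 were called higher in Eos- Tregs than in Tconv (5 with the block, 2 without the libraries numbered 1). The medians of the 8 log2 changes were -0.22, 0.07 and 0.35 in that order. B2m had 2557, 2290.4, 2328 and 2982 CPM in Eos+ Tregs, 1993, 2304, 2322 and 2869.6 CPM in Eos- Tregs, and 1470.2, 1442, 1681 and 2107 CPM in Tconv (ENSMUSG00000060802.8, chr2:122147686-122153083, plus strand). B2m, the light chain of all class I molecules, rose by 0.60 ± 0.15 in Eos+ Tregs against Tconv (adjusted p = 0.0068), with no overlap. In Eos- Tregs against Tconv it was called at 0.50 ± 0.14 (adjusted p = 0.0342) with overlap, and this call was lost without Eos- Treg replicates 2, 3 or 4 or Tconv replicates 1, 2 or 3 (adjusted p 0.0639 to 0.107). The 95% interval of its log2 change in Eos+ against Eos- Tregs was -0.21 to 0.41. No 50-base word of B2m occurs in another gene.

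Nlrc5 had 246, 236, 335 and 222 CPM in Eos+ Tregs, 346, 381, 565 and 331 CPM in Eos- Tregs, and 243, 242, 305 and 221 CPM in Tconv (ENSMUSG00000074151.13, chr8:94434356-94527272, plus strand). Nlrc5, the transactivator of class I genes, stood highest in Eos- Tregs, whose lowest library was above every Tconv library but not above every Eos+ library. It fell by 0.64 on the log2 scale in Eos+ against Eos- Tregs (SE 0.18, adjusted p = 0.0263) and rose by 0.68 ± 0.18 in Eos- Tregs against Tconv (adjusted p = 0.0217). In Eos+ Tregs against Tconv the 95% interval was -0.35 to 0.42. The first call ended on leaving out any Eos+ library but replicate 3, or replicate 3 of the Eos- Tregs (adjusted p 0.0665 to 0.0759), and the second was lost without Eos- Treg replicate 3 or Tconv replicates 1, 2 or 4 (adjusted p 0.054 to 0.066). Under the replicate block they stood at adjusted p = 0.000143 and 9.4e-05.

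Tap1 and Tap2 form the peptide transporter. Tap1 had 534, 432, 567 and 614 CPM in Eos+ Tregs, 623, 574, 721 and 821 CPM in Eos- Tregs, and 443, 343, 454 and 486 CPM in Tconv. Tap1 rose by 0.67 ± 0.14 in Eos- Tregs against Tconv (adjusted p = 0.00707), with no overlap. Its change was -0.35 ± 0.14 in Eos+ against Eos- Tregs (adjusted p = 0.115, 0.0016 with the replicate block) and 0.31 ± 0.14 in Eos+ Tregs against Tconv (adjusted p = 0.117, 0.00161 with the block). Tap2 had 472, 454, 579 and 526 CPM in Eos+ Tregs, 584, 511, 583 and 593 CPM in Eos- Tregs, and 508, 445, 560.0 and 498 CPM in Tconv, and it was called in 0 of the 3 comparisons. Tapbp had 785, 917, 1049 and 931 CPM in Eos+ Tregs, 989, 978, 1038 and 1091 CPM in Eos- Tregs, and 899, 810.4, 1017 and 1006 CPM in Tconv, where Tapbp encodes tapasin, and it too was called in 0 comparisons. The 95% interval in Eos+ Tregs against Tconv was -0.19 to 0.22 for Tap2 and -0.24 to 0.20 for Tapbp on the log2 scale.

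Psmb8, Psmb9 and Psmb10 are the catalytic subunits that turn the proteasome into the immunoproteasome. Psmb9 had 203, 171, 192 and 243 CPM in Eos+ Tregs, 226, 220.4, 247 and 294 CPM in Eos- Tregs, and 173, 154, 186 and 207 CPM in Tconv. Psmb9 was called at 0.46 ± 0.13 in Eos- Tregs against Tconv (adjusted p = 0.028), with no overlap, and the call was lost without Eos- Treg replicates 3 or 4 or Tconv replicates 1, 2 or 3 (adjusted p 0.0531 to 0.0921). With the replicate block it was also called in Eos+ against Eos- Tregs (-0.29, adjusted p = 0.0058, against 0.149 without) and in Eos+ Tregs against Tconv (0.17, adjusted p = 0.0494, against 0.357 without). Tap1 and Psmb9 lie head to head and share 212 exon bases, so reads there cannot be told apart without strand. Psmb10 had 153, 138, 139 and 131 CPM in Eos+ Tregs, 186, 161, 163 and 174 CPM in Eos- Tregs, and 152, 143, 171 and 175 CPM in Tconv. Psmb10 was called lower in Eos+ than in Eos- Tregs (-0.29 ± 0.08, adjusted p = 0.0325) with no overlap. It ended on leaving out any Eos+ library but replicate 1, or replicate 1 or 4 of the Eos- Tregs (adjusted p 0.0537 to 0.0785). Psmb8 had 749, 586, 635 and 624 CPM in Eos+ Tregs, 781, 652, 692 and 759 CPM in Eos- Tregs, and 594, 540.4, 605 and 682 CPM in Tconv. The log2 change of Psmb8 was 0.25 ± 0.10 in Eos- Tregs against Tconv (adjusted p = 0.109, 0.0258 with the block). Without the 3 libraries numbered 1, the calls of Nlrc5 in Eos+ against Eos- Tregs (adjusted p = 0.0572), Psmb10 (0.0555), Psmb9 (0.0676) and B2m in Eos- Tregs against Tconv (0.0545) were all lost.

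Set against the subunit that each replaces, Psmb8 over Psmb5 was 4.86, 4.61, 4.51 and 4.44 in Eos+ Tregs, 5.42, 5.25, 5.58 and 5.81 in Eos- Tregs, and 4.48, 5.06, 4.61 and 4.91 in Tconv, as ratios of CPM. Every Eos- Treg library lay above every library of both other populations. Psmb9 over Psmb6 was 0.889, 0.761, 0.986 and 1.25 in Eos+ Tregs, 0.933, 1.07, 1.38 and 1.45 in Eos- Tregs, and 0.795, 0.738, 0.881 and 0.873 in Tconv, where Eos- Tregs stood above Tconv without overlap and overlapped with Eos+ Tregs. Psmb10 over Psmb7 was 1.97, 1.90, 1.94 and 1.68 in Eos+ Tregs, 2.38, 2.10, 2.31 and 2.03 in Eos- Tregs, and 1.92, 1.70, 2.22 and 1.85 in Tconv, where Eos- Tregs stood above Eos+ Tregs without overlap. The constitutive subunits Psmb5, Psmb6 and Psmb7 were called in 0 of the 3 comparisons.

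**Figure D3:**
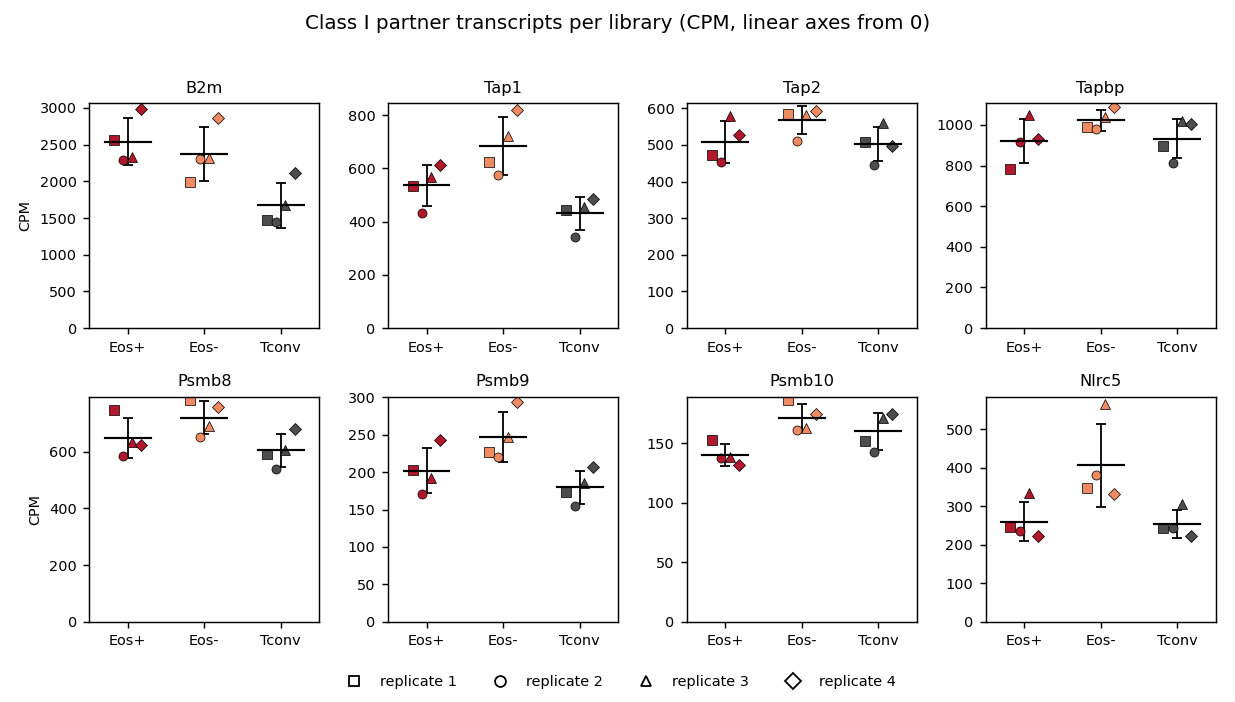
Levels of the 8 class I partner transcripts by library. Each panel has CPM on a linear axis from 0, points are libraries with the replicate number as the symbol, and bars give the mean ± SD of 4 libraries in Eos+ Tregs, Eos- Tregs and Tconv. B2m is higher in both Treg populations, whereas Nlrc5, Tap1 and Psmb9 have their highest means in Eos- Tregs.

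Other genes of the class I pathway were mostly not called. Of 14 listed (peptidases, chaperones, proteasome activators and constitutive subunits), 13 were tested, and 0 were called in Eos+ against Eos- Tregs, 3 higher and 2 lower in Eos+ Tregs against Tconv, and 2 higher and 2 lower in Eos- Tregs against Tconv. In the first of these 1 was higher and 1 lower with the block and at an unadjusted p under 0.05, and in the last 4 were lower with the block and 0 without the libraries numbered 1. Tapbpl had 122, 123, 126 and 119 CPM in Eos+ Tregs, 103, 104, 115 and 119.6 CPM in Eos- Tregs, and 80.1, 67.8, 78.9 and 84.2 CPM in Tconv, and Tapbpl, the tapasin-related editor of class I peptides, rose in both Treg populations against Tconv (0.66 ± 0.08 in Eos+ Tregs, adjusted p = 5.2e-05, and 0.51 ± 0.08 in Eos- Tregs, adjusted p = 0.00104). Psme1, a proteasome activator subunit, rose likewise (0.49 ± 0.08 and 0.44 ± 0.08, adjusted p = 0.000299 and 0.00186). Erap1, which trims peptides in the endoplasmic reticulum, fell in both Treg populations (-0.42 ± 0.11 in Eos+ Tregs and -0.36 ± 0.11 in Eos- Tregs, adjusted p = 0.00987 and 0.0407). Of 5 class I-like genes outside the H2 names (Cd1d1, Cd1d2, Mr1, Fcgrt and Hfe), 0 were called in each comparison by edgeR, and 0, 0 and 1 had an unadjusted p under 0.05. The thymoproteasome subunit Psmb11 of cortical epithelium had 0 counts in 8 of 12 libraries and at most 0.878 CPM.

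Of 10 listed genes that respond to interferon, 0 were called higher and 5, like H2-T10 and H2-T22, lower in Eos+ than in Eos- Tregs (Irf9, Ifit1, Irf7, Isg15 and Ifit3, with log2 changes between -1.01 and -0.57), 8 higher and 0 lower in Eos- Tregs than in Tconv, and 3 higher and 2 lower in Eos+ Tregs than in Tconv (0 higher and 2 lower without the libraries numbered 1). At an unadjusted p under 0.05, 0 were higher and 7 lower in Eos+ than in Eos- Tregs. Irf9 had 299, 297, 306 and 286 CPM in Eos+ Tregs, 400.3, 452, 482 and 435 CPM in Eos- Tregs, and 313, 270.3, 303 and 274 CPM in Tconv. Irf9, a subunit of the factor that interferon activates, fell in Eos+ against Eos- Tregs (-0.57 ± 0.08, adjusted p = 0.000288) without overlap. Irf1 had 282, 236, 309 and 329.9 CPM in Eos+ Tregs, 345, 379, 500.2 and 528 CPM in Eos- Tregs, and 262, 223, 357 and 384 CPM in Tconv. Irf1, an activator of class I promoters, was called at -0.60 ± 0.19 in Eos+ against Eos- Tregs (adjusted p = 0.0428). Of the 10 MHC regulators listed outside the set, 1 was called higher and 1 lower in Eos+ against Eos- Tregs. With the block, and at an unadjusted p under 0.05, 1 was higher and 3 were lower, and without the libraries numbered 1 none was higher and 1 was lower. The higher one was Irf8 (0.45 ± 0.13, adjusted p = 0.0367, and 0.0789 without the libraries numbered 1), which was also higher in Eos+ Tregs than in Tconv (1.90 ± 0.14, adjusted p = 7.32e-07). Whether these genes have a part in the class I levels was not tested.

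The rule takes class I as a sign of thymocyte maturity, so maturity genes were read beside it. Of 7 mature thymocyte genes, 2 were called higher and 4 lower in Eos+ against Eos- Tregs, 1 higher and 1 lower in Eos+ Tregs against Tconv, and 3 higher and 2 lower in Eos- Tregs against Tconv. S1pr1 had 241, 370.2, 419.9 and 340.3 CPM in Eos+ Tregs, 647, 703, 765 and 737 CPM in Eos- Tregs, and 307, 315, 367 and 286 CPM in Tconv, and S1pr1, the receptor for thymic exit, fell in Eos+ against Eos- Tregs (-1.06 ± 0.14, adjusted p = 0.000344) and rose in Eos- Tregs against Tconv (1.16 ± 0.14, adjusted p = 0.000166). Ly6a had 130.3, 84.9, 138 and 148 CPM in Eos+ Tregs, 62.7, 27.8, 37.5 and 61.2 CPM in Eos- Tregs, and 87.5, 57.2, 93.6 and 146 CPM in Tconv, and Ly6a rose in Eos+ against Eos- Tregs (1.40 ± 0.31, adjusted p = 0.00709). Of 8 immature thymocyte genes, Cd24a and Ccr9 were called lower in each Treg population than in Tconv. In Eos+ against Eos- Tregs edgeR called 0 of them, and 2 were lower at an unadjusted p under 0.05, as also when the libraries numbered 1 were left out or when the block was used. Ccr9 had 65.2, 11.0, 19.6 and 29.4 CPM in Eos+ Tregs, 191, 87.9, 39.5 and 42.2 CPM in Eos- Tregs, and 441, 499.5, 243 and 421 CPM in Tconv. Every Treg library lay below every Tconv library for Ccr9, a chemokine receptor of immature thymocytes, while Eos+ and Eos- Tregs overlapped.

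**Figure D4:**
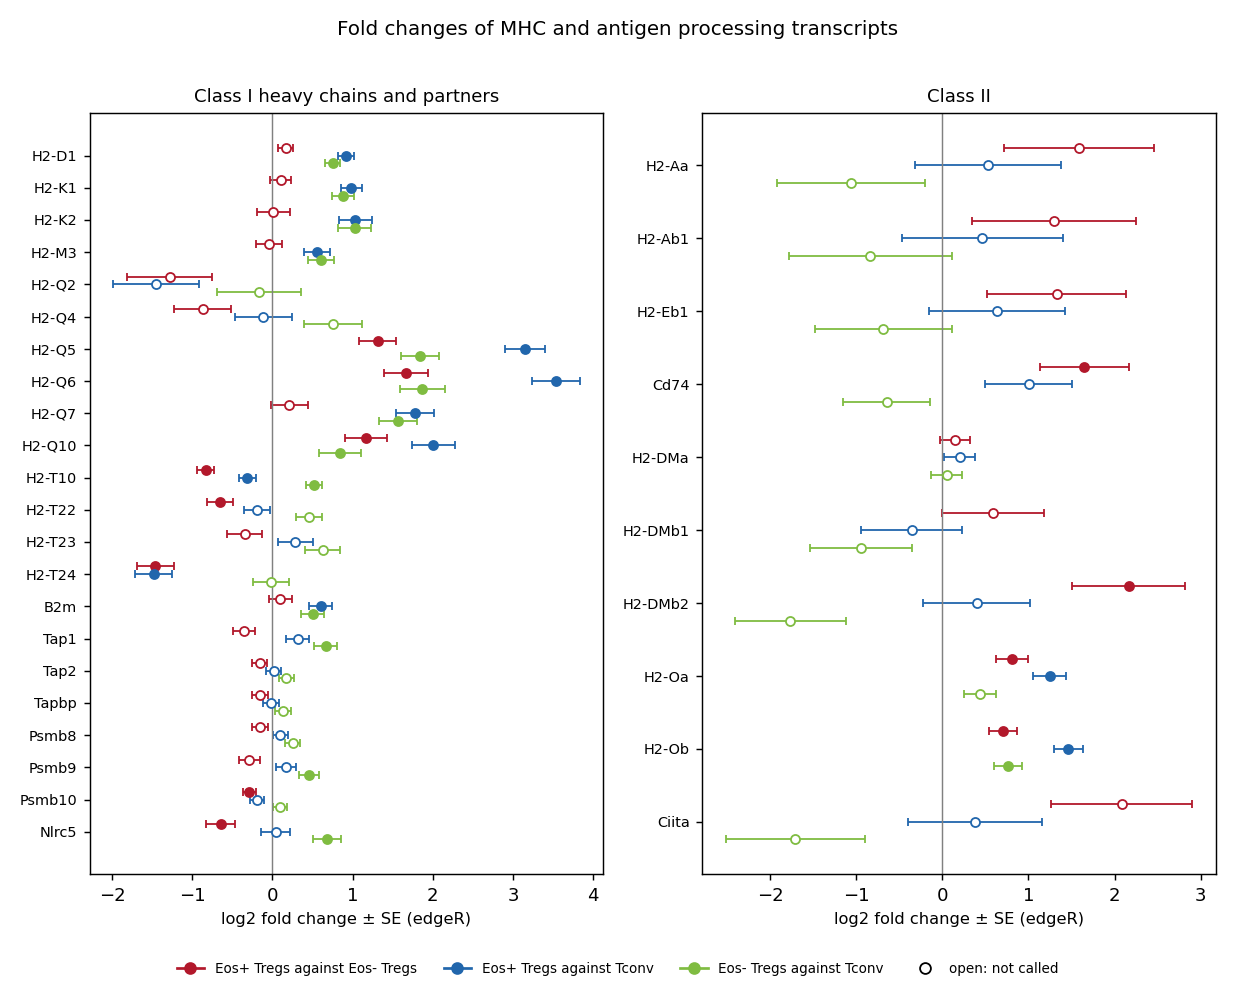
Log2 fold changes of class I heavy chains and partners (left) and class II genes (right) in the 3 comparisons. The horizontal axis is the log2 fold change with its SE from edgeR, 1 colour per comparison, and open circles are changes that were not called. H2-Q5 and H2-Q6 lie beyond 3 in Eos+ Tregs against Tconv, while H2-T10, H2-T22 and H2-T24 lie left of 0 in Eos+ against Eos- Tregs.

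Among class II transcripts, H2-Oa and H2-Ob were called higher in Eos+ Tregs than in both other populations without overlap, while H2-Aa, H2-Ab1, H2-Eb1 and Cd74 varied more between libraries of 1 population. Of 11 class II genes tested, 4 were called higher and 0 lower in Eos+ than in Eos- Tregs by edgeR, with a median log2 change of 1.32. Over all genes 9.82% were called higher there and 6.45% lower. With the replicate block, or without the libraries numbered 1, 7 were called higher, and 0 were lower at an unadjusted p under 0.05. In Eos+ Tregs against Tconv 2 were called higher and 0 lower (median 0.46), and 3 higher with the block. Over all genes 17.3% were called higher there, and 19.8% with the block, so the 2 calls were near the share of the table. In Eos- Tregs against Tconv 1 was called higher and 1 lower (median -0.84), against 8.76% higher and 5.89% lower over all genes. There 1 was higher and 3 lower with the block, 2 were lower with DESeq2, 0 with limma-voom and 4 without the libraries numbered 1. The pseudogenes H2-Pa and H2-Pb had 0 counts in all libraries.

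H2-Oa and H2-Ob encode the 2 chains of H2-O, which inhibits peptide loading by H2-DM. H2-Ob had 105, 146, 142 and 118 CPM in Eos+ Tregs, 72.7, 78.7, 89.0 and 74.1 CPM in Eos- Tregs, and 54.3, 48.7, 51.3 and 31.2 CPM in Tconv (ENSMUSG00000041538.16, chr17:34238903-34254414, plus strand). The means were 128 ± 19.3 CPM in Eos+ Tregs, 78.6 ± 7.39 CPM in Eos- Tregs and 46.4 ± 10.4 CPM in Tconv (SD, n = 4 each). The 3 populations did not overlap, and the library numbered 1 was not the highest in either Treg population, while it was in Tconv. H2-Ob rose by 0.70 ± 0.16 in Eos+ against Eos- Tregs (adjusted p = 0.00948), by 1.46 ± 0.16 in Eos+ Tregs against Tconv (adjusted p = 2.24e-05) and by 0.76 ± 0.16 in Eos- Tregs against Tconv (adjusted p = 0.00674). No 50-base word of H2-Ob occurs in another gene, and its values were whole in all libraries. H2-Oa had 47.3, 41.1, 29.7 and 30.9 CPM in Eos+ Tregs, 23.2, 26.7, 19.1 and 16.2 CPM in Eos- Tregs, and 14.5, 14.2, 16.4 and 17.8 CPM in Tconv (ENSMUSG00000024334.9, chr17:34092340-34095234, plus strand). Eos+ Tregs lay above both other populations, which overlapped. The library numbered 1 was the highest for H2-Oa in Eos+ Tregs, but not in Eos- Tregs or Tconv. H2-Oa rose by 0.81 ± 0.19 in Eos+ against Eos- Tregs (adjusted p = 0.0105) and by 1.24 ± 0.19 in Eos+ Tregs against Tconv (adjusted p = 0.000267), and its log2 change was 0.44 ± 0.19 in Eos- Tregs against Tconv (adjusted p = 0.148). Its exons share 22.81% of their bases with the antisense gene BC051537. Per kilobase of exon, the mean level in Eos+ Tregs was 26.5 CPM for H2-Oa and 23.8 CPM for H2-Ob, against 12.5 CPM for H2-Aa, 41.9 CPM for H2-Ab1 and 302 CPM for Cd74.

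The chains that present peptide, H2-Aa and H2-Ab1 of I-A and H2-Eb1 of I-E, varied more between libraries of 1 population. The row of the H2-Ea pseudogene, H2-Ea-ps, which lies outside the set, had 0 counts in all 12 libraries. H2-Ab1 had 214, 113, 58.3 and 44.9 CPM in Eos+ Tregs, 143, 12.3, 3.91 and 15.8 CPM in Eos- Tregs, and 140.3, 43.5, 111 and 17.3 CPM in Tconv (ENSMUSG00000073421.6, chr17:34257689-34269419, plus strand). H2-Aa had 97.3, 47.0, 26.8 and 19.3 CPM in Eos+ Tregs, 47.4, 6.35, 2.04 and 7.81 CPM in Eos- Tregs, and 60.0, 14.8, 48.0 and 9.15 CPM in Tconv. H2-Eb1 had 67.4, 31.2, 23.2 and 26.3 CPM in Eos+ Tregs, 43.4, 7.09, 1.66 and 7.21 CPM in Eos- Tregs, and 41.1, 12.6, 34.0 and 7.47 CPM in Tconv. In each of the 3 populations the library numbered 1 was the highest for all 3 chains, and in Eos- Tregs it stood far from the rest. In Eos+ against Eos- Tregs the log2 change was 1.3 ± 0.95 for H2-Ab1 (adjusted p = 0.407), 1.59 ± 0.87 for H2-Aa (adjusted p = 0.257) and 1.33 ± 0.80 for H2-Eb1 (adjusted p = 0.308), so that none was called by edgeR. The replicate block brought calls for H2-Aa (adjusted p = 0.0365) and H2-Eb1 (0.0466). Without Eos- Treg replicate 1, the changes were 3.31 for H2-Ab1 (adjusted p = 0.0124), 3.11 for H2-Aa (0.0155) and 2.77 for H2-Eb1 (0.0139). Without all 3 libraries numbered 1 they were 2.74 (adjusted p = 0.0251), 2.51 (0.0307) and 2.32 (0.0289). H2-Ab1 was also called in Eos- Tregs against Tconv without Eos- Treg replicate 1 (-2.85, adjusted p = 0.023).

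Cd74 had 816, 489, 372 and 354 CPM in Eos+ Tregs, 373, 94.7, 81.5 and 99.9 CPM in Eos- Tregs, and 431, 155, 285 and 143 CPM in Tconv (ENSMUSG00000024610.15, chr18:60803848-60812652, plus strand). Cd74, the invariant chain, was called higher in Eos+ than in Eos- Tregs (1.65 ± 0.52, adjusted p = 0.046), although Eos- Treg replicate 1 reached into the range of Eos+ Tregs. Leaving out any Eos+ library but replicate 4, any Eos- library but replicate 1, or replicate 2 or 3 of Tconv ended the call (adjusted p 0.0515 to 0.129), which stood at 0.000526 with the replicate block. With the block Cd74 was also called in Eos+ Tregs against Tconv (1.05, adjusted p = 0.00637, against 0.163 without) and in Eos- Tregs against Tconv (-0.81, adjusted p = 0.0396, against 0.462 without). Without Eos- Treg replicate 1 these last 2 changes had adjusted p-values of 0.0443 and 0.0205.

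H2-DMa, H2-DMb1 and H2-DMb2 encode the chains of H2-DM, the peptide exchange factor. H2-DMb2 had 31.0, 22.6, 6.47 and 6.92 CPM in Eos+ Tregs, 8.39, 2.76, 0.899 and 3.02 CPM in Eos- Tregs, and 19.4, 12.7, 12.2 and 6.55 CPM in Tconv. H2-DMb2 was called higher in Eos+ than in Eos- Tregs (2.16 ± 0.65, adjusted p = 0.0395) with overlapping groups. It ended on leaving out replicate 1 or 2 of the Eos+ Tregs, any Eos- library but replicate 1, or replicate 2 or 3 of Tconv (adjusted p 0.0538 to 0.119). In Eos- Tregs against Tconv the change was -1.76 ± 0.65 (adjusted p = 0.0896, 0.00689 with the block and 0.0167 without Eos- Treg replicate 1). H2-DMb1 had 9.19, 3.59, 4.23 and 3.67 CPM in Eos+ Tregs, 8.39, 1.97, 1.66 and 1.81 CPM in Eos- Tregs, and 8.66, 3.83, 10.9 and 3.00 CPM in Tconv. The log2 change of H2-DMb1 was -0.94 ± 0.59 in Eos- Tregs against Tconv (adjusted p = 0.34, and 0.0218 without Eos- Treg replicate 1 and 0.033 without all libraries numbered 1). Of the 50-base words, 22.7% of H2-DMb1 and 25.9% of H2-DMb2 also occur in another gene. H2-DMa had 54.8, 40.5, 49.4 and 50.8 CPM in Eos+ Tregs, 60.7, 34.6, 38.5 and 42.7 CPM in Eos- Tregs, and 51.1, 34.4, 44.6 and 40.2 CPM in Tconv, and it was called in 0 comparisons. H2-DMa shares 360 exon bases with Brd2, an abundant gene, so its counts are uncertain. Ciita, the class II transactivator, was scarce, with 10.3, 7.84, 3.94 and 1.44 CPM in Eos+ Tregs, 2.87, 0.399, 0.173 and 2.13 CPM in Eos- Tregs, and 7.75, 3.48, 5.31 and 1.53 CPM in Tconv. Its change in Eos+ against Eos- Tregs was 2.08 ± 0.82 (adjusted p = 0.107, 0.101 with the block, and 0.0331 by DESeq2, which called it). H2-Eb2 had 47 counts over the Eos+ libraries, 1 over the Eos- libraries and 55 over the Tconv libraries. The rate ratio of Eos- Tregs over Tconv was 0.0187, with an exact 95% interval of 0.000464 to 0.108 for counting error alone, and it was called by edgeR (adjusted p = 0.0444) but not by limma-voom (0.229). Leaving out any library but Eos+ Treg replicates 1 or 4 or Tconv replicate 4 ended that call (adjusted p 0.0532 to 0.118). In Eos+ against Eos- Tregs its adjusted p was 0.0524 (0.0318 with the block, 0.0452 without Eos+ Treg replicate 4 and 0.0267 without Tconv replicate 4).

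Markers of cells that make class II were read beside these genes. Of 12 B cell markers, 11 were tested, and 4 were called higher in Eos+ than in Eos- Tregs (Cd79a, Cd79b, Ighm and Ighd), 3 higher in Eos+ Tregs than in Tconv and 0 in Eos- Tregs against Tconv. Under the replicate block 7 were called higher in Eos+ than in Eos- Tregs and 4 lower in Eos- Tregs than in Tconv, where 3 were lower at an unadjusted p under 0.05. The whole list of 12 summed to 1839, 1689.7, 1400.4 and 1621 CPM in Eos+ Tregs, 475, 224, 177 and 293 CPM in Eos- Tregs, and 408, 253, 233 and 259.7 CPM in Tconv. Most of that sum was Ighm, with 1656, 1548, 1330.0 and 1559.7 CPM in Eos+ Tregs, 443, 219.5, 172 and 283 CPM in Eos- Tregs, and 343, 219, 194 and 245 CPM in Tconv, so that Eos+ Tregs lay above both other populations without overlap. Leaving out Ighm, the other 11 B cell markers summed to 183, 142, 70.4 and 61.1 CPM in Eos+ Tregs, 31.9, 4.59, 4.39 and 10.2 CPM in Eos- Tregs, and 65.1, 34.0, 38.4 and 14.5 CPM in Tconv. Ms4a1 was at 0 in 3 of 4 Eos- libraries. The 14 dendritic cell and macrophage markers summed to 134, 51.7, 106 and 88.4 CPM in Eos+ Tregs, 83.5, 15.4, 5.88 and 29.6 CPM in Eos- Tregs, and 55.5, 17.6, 37.0 and 24.5 CPM in Tconv, and 3 of the 12 tested (Zbtb46, Xcr1 and Fcgr1) were called higher in Eos+ than in Eos- Tregs. Fcgr1 was at 0 in all 4 Eos- libraries. Siglech of the same list went the other way and was not called there. Its means were 0.347 CPM in Eos+ Tregs, 3.80 CPM in Eos- Tregs and 6.04 CPM in Tconv. Of 9 thymic epithelial markers 4 were tested, with Aire and Epcam called higher in Eos+ than in Eos- Tregs. The whole epithelial list summed to 82.9 to 99.1 CPM in Eos+ Tregs, 43.9 to 63.3 CPM in Eos- Tregs and 36.4 to 54.1 CPM in Tconv, while the defining gene Foxn1 was at 0 in 11 of 12 libraries. By library that epithelial sum was 82.9, 99.1, 94.3 and 84.9 CPM in Eos+ Tregs. It was 43.9, 47.7, 63.3 and 58.9 CPM in Eos- Tregs, and 52.0, 40.6, 54.1 and 36.4 CPM in Tconv. Most of it was Ly75 and Epcam, with means of 57.2 and 30.4 CPM in Eos+ Tregs. The part of such cells in the class II levels was not tested.

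**Figure D5:**
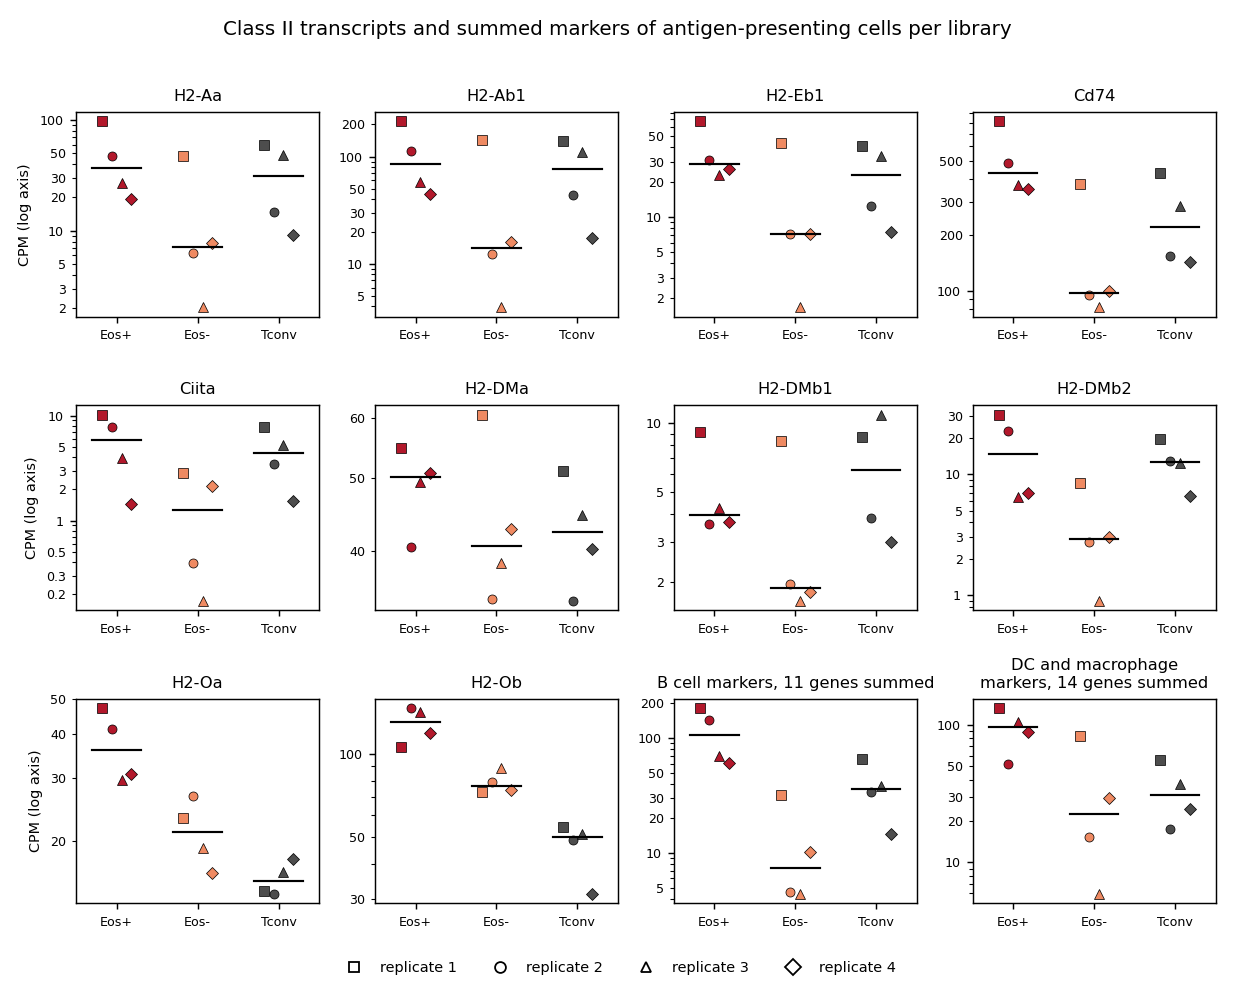
Levels of 10 class II transcripts and of 2 summed marker lists by library, on log axes in CPM. Points are libraries with the replicate number as the symbol and lines are medians of 4 libraries in Eos+ Tregs, Eos- Tregs and Tconv. The square of replicate 1 is the highest point of each group for H2-Aa, H2-Ab1, H2-Eb1 and Cd74, but not for H2-Ob in the Treg populations. For H2-Oa it is the highest point in Eos+ Tregs only.

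Genes that serve class II outside the set gave a mixed picture. Of 10 listed, 4 were called higher and 0 lower in Eos+ against Eos- Tregs (Cd83, Ifi30, Ctss and Ctsb), 3 higher and 1 lower in Eos+ Tregs against Tconv, and 2 higher and 4 lower in Eos- Tregs against Tconv. Ctss had 516, 591, 506 and 513 CPM in Eos+ Tregs, 313, 352, 346 and 402 CPM in Eos- Tregs, and 142, 149, 169 and 236 CPM in Tconv. Ctss encodes cathepsin S, which trims the invariant chain, and it rose in Eos+ against Eos- Tregs (0.59 ± 0.14, adjusted p = 0.0124), in Eos+ Tregs against Tconv (1.61 ± 0.14, adjusted p = 3.78e-06) and in Eos- Tregs against Tconv (1.02 ± 0.14, adjusted p = 0.000413). Cd83 had 572, 642, 556 and 484 CPM in Eos+ Tregs, 141, 158, 123 and 140.3 CPM in Eos- Tregs, and 19.7, 7.13, 8.20 and 8.26 CPM in Tconv. Cd83, which stabilises class II on the cell surface, was graded in the same order and rose by 2.00 ± 0.26 in Eos+ against Eos- Tregs (adjusted p = 0.000245) and by 5.70 ± 0.31 in Eos+ Tregs against Tconv (adjusted p = 6.56e-08). Neither gene had its highest level in the libraries numbered 1 of the Treg populations, while Cd83 did so in Tconv. Ctsd had 377, 256, 298 and 305 CPM in Eos+ Tregs, 437, 404, 342 and 349 CPM in Eos- Tregs, and 567, 462, 563 and 631 CPM in Tconv, and Ctsd, cathepsin D, fell in Eos+ Tregs against Tconv (-0.85 ± 0.13, adjusted p = 0.000271) and in Eos- Tregs against Tconv (-0.54 ± 0.13, adjusted p = 0.0135).

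H2-Ke6 had 137, 149, 114 and 103 CPM in Eos+ Tregs, 133, 126, 119 and 103 CPM in Eos- Tregs, and 125, 124, 160.3 and 121 CPM in Tconv. H2-Ke6, which encodes the steroid dehydrogenase Hsd17b8 of the MHC region, was called in 0 of the 3 comparisons. It shares 86.37% of its exon bases with the readthrough transcript Gm20427, so its counts are uncertain.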

How the data were processed

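The deposited table holds expected counts per gene for 12 libraries, which the authors made with cutadapt 1.18, STAR 2.7.0f and RSEM 1.3.1 on mm10, per the submitters' processing notes. Library preparation was SMARTer cDNA from 1 ng of total RNA and Nextera XT, per the labels' protocols, a preparation that does not mark strand. All 55450 gene IDs matched a GENCODE M21 annotation, from which symbols, coordinates and exon lengths were taken. Between 9.54% and 10.74% of values per library were not whole (tolerance 1e-06), and all were rounded. edgeR 4.0.16 (R 4.3.3) fitted 1 mean per population over all 12 libraries with TMM factors, its default filter on low counts and a quasi-likelihood F test, two-sided, with Benjamini-Hochberg adjustment over 15361 genes. The edgeR, limma-voom and DESeq2 fits without the replicate block were run on simulated counts, for Eos+ Tregs against Tconv only. The simulated libraries were independent, with no pairing, no outlying library and no shared reads, so that run cannot speak to these features of the data. The labels do not say whether replicates are separate animals, so p-values measure the spread between these samples. Only the replicate block took the replicate numbers as pairing the samples. The main fit left this pairing out, and so did all SEs, intervals and calls given without mention of the block. Grounds for pairing were that the library names share 1 code per number and that the deviations of same-numbered libraries correlated in all 12 pairs of libraries (r from 0.138 to 0.318, against at most 0.07 for other pairs). Alternatives were the replicate block, RLE size factors, DESeq2 1.42.0, limma-voom (limma 3.58.1), no filter on low counts, only the groups compared, each library left out in turn and the libraries numbered 1 left out. Genes were given in every library where they passed the filter and were called once or averaged 5 CPM, and genes of the other lists were named where called without overlap, at most 6 per list and comparison. Ms4a1, Cd79a, Fcgr1, Siglech, Aire, Foxn1, Ly75, Psmb11 and Cd1d2 were named after their values were seen. Members and lists were chosen with earlier results of these data known. Shared 50-base words were counted on the annotated transcripts. Motifs were searched in RefSeq promoter windows of GRCm38.p6.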

Additional observations from a re-analysis of the deposited data

Results flagged for a closer look

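In 15 of 99 groups of 4 libraries, over 33 genes, 1 library stood far from the other 3 by Dixon's test, a rule that chance meets in about 5% of groups. Eos- Treg replicate 1 stood apart at 373 CPM for Cd74, 47.4 CPM for H2-Aa, 143 CPM for H2-Ab1, 43.4 CPM for H2-Eb1, 8.39 CPM for H2-DMb1 and 15.5 CPM for H2-Q2. Eos+ Treg replicate 1 did so at 10.4 CPM for H2-Q2, 9.19 CPM for H2-DMb1, 1.10 CPM for H2-Eb2 and 45.8 CPM for H2-T10. The other flags were Eos- Treg replicate 4 at 146.5 CPM for H2-M3, Eos- Treg replicate 2 at 511 CPM for Tap2, Eos- Treg replicate 3 at 0.0346 CPM for H2-Eb2, Tconv replicate 4 at 4.13 CPM for H2-Q10 and Tconv replicate 3 at 160.3 CPM for H2-Ke6. H2-T-ps, a pseudogene name that the rule leaves out, averaged 21.2 CPM in Eos+ Tregs, 20.3 CPM in Eos- Tregs and 11.7 CPM in Tconv. It was higher in Eos+ Tregs than in Tconv (log2 0.86, adjusted p = 0.00269 by edgeR) and in Eos- Tregs than in Tconv (log2 0.79, adjusted p = 0.00975), in 4 of 4 libraries each.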

How the results depend on the processing

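With the replicate block, the count of genes of the set called in Eos+ against Eos- Tregs was 20, against 12 without it, and beyond the calls named in the results the block changed no other call among the 67 results followed. Leaving out 1 library at a time gave 8 to 14 calls in Eos+ against Eos- Tregs, 11 to 14 in Eos+ Tregs against Tconv and 9 to 21 in Eos- Tregs against Tconv. Of 40 called results of single genes, 28 were called in every fit run, and 0 reversed their direction. Counting each result once for each library left out, a single result kept its side of the threshold in 714 cases, lost its call in 72 and gained one in 18. Counted in the same way over the other fits, it kept its side in 408 cases, lost its call in 19 and gained one in 38; the cause was not tested. The scaling with RLE size factors gave the same counts as TMM, namely 12, 13 and 15. Between genes that share reads, such as H2-Q6 and H2-Q7 or H2-T10 and H2-T22, the split depends on RSEM, and the family sums carry no test.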

Other observations

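Cd1d2, a class I-like gene that presents lipids, varied with the replicate number in all 3 populations. Its level was 4.30, 39.2, 27.9 and 6.22 CPM in Eos+ Tregs, 4.82, 39.4, 28.0 and 7.64 CPM in Eos- Tregs, and 8.14, 39.9, 32.7 and 8.49 CPM in Tconv. In each population the libraries numbered 2 and 3 stood above those numbered 1 and 4, while the neighbouring gene Cd1d1 lay between 129 and 176 CPM in all 12 libraries. H2-Ob, with no shared reads, stood at 2.23, 3.56, 4.77 and 3.83 times the CPM of H2-Oa in Eos+ Tregs, 3.13, 2.95, 4.67 and 4.57 times in Eos- Tregs, and 3.75, 3.43, 3.14 and 1.75 times in Tconv.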
